A study of Mus musculus with 24 samples.

Results

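The smooth muscle cluster of mmu-miR-143 and mmu-miR-145a was followed through its mature products mmu-miR-143-3p, mmu-miR-145a-5p and mmu-miR-145a-3p, which are 3 of the 1881 mouse miRNAs on the array. They were selected by their names. The data were 24 one-color miRNA arrays of C57BL/6J mice from 8 tissues: iris, RPE/choroid, sclera, cornea, lens and retina of the eye, and the brain regions labeled SCN and LGN. Each tissue was measured on 1 array in each of 3 lens groups, called normal (no lens), 0 D lens and −30 D lens. The normal and −30 D mice were male, and the −30 D lens, which induces myopia, was fixed onto the right eye at 3 weeks of age and worn for 3 weeks. For the ocular tissues of both groups, equal amounts of RNA from 3 mice were mixed for 1 array, so that no array shows the spread between animals. The mice, the wearing time and the pooling of the 0 D group and of the brain regions are not given in the sources used here. Since each of the 3 slides held the 8 tissues of a single lens group, a slide effect and a lens effect cannot be told apart.

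Both miRNA genes lie close together and are transcribed as 1 long precursor, from which a hairpin each is cut out. In the RefSeq annotation of the mouse genome (GRCm38.p6), Mir143 and Mir145a lie within the span of the noncoding gene Carmn, with no other annotated gene starting between them. The pair is known as a mark of contractile smooth muscle, where serum response factor and myocardin drive its transcription and where it keeps the cells in the contractile state. In the eye, such cells form the sphincter of the iris and the walls of arterioles, whereas pericytes, which also carry the pair, surround the capillaries of the choroid and retina. The mature cornea and the lens have no vessels of their own.

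A miRNA was called detected where at least 1 of its probes was above 3 times its error, and its signal was the sum of those probes. Arrays were brought to a common 75th percentile, taken over the 79 miRNAs that every array detected. All levels below are such scaled signals in arbitrary units, with the error of the probes, and a level of 1 miRNA was not set against that of another. The arrays detected 129 to 249 miRNAs each. Of the 3 cluster products, mmu-miR-143-3p was detected on 11 arrays, mmu-miR-145a-5p on 3 and mmu-miR-145a-3p on 0 of 24.

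To show which miRNAs the cluster products were set beside, the mature sequences of the 8 miRNAs whose levels were most like theirs, among miRNAs detected on at least 20 of the 24 arrays, are given here from RefSeq, 5′ to 3′, with the seed (bases 2 to 8), the stretch that pairs with target mRNAs, in capitals.

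mmu-miR-24-3p: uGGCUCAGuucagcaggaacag

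mmu-miR-22-3p: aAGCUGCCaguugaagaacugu

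mmu-miR-23a-3p: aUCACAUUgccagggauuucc

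mmu-miR-211-5p: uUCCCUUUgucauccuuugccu

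mmu-miR-99b-5p: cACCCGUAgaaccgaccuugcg

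mmu-let-7i-5p: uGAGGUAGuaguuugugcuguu

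mmu-let-7a-5p: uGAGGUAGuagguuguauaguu

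mmu-let-7e-5p: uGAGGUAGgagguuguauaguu

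On GRCm38.p6, mmu-miR-23a-3p lies at chr8:84208563-84208583 and a copy of mmu-miR-24-3p at chr8:84208875-84208896, both on the plus strand. mmu-miR-211-5p lies at chr7:64205831-64205852 on the plus strand and mmu-let-7i-5p at chr10:122985698-122985719 on the minus strand. The let-7 members share the seed GAGGUAG, and the other 5 each have a seed of their own.

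mmu-miR-143-3p, the more widely detected product, was brightest in the iris. Its level there was 304 ± 22.1 on the normal array, 310 ± 22.5 on the 0 D array and 307 ± 22.3 on the −30 D array. In RPE/choroid, it was 42.0 ± 3.53, 43.0 ± 3.80 and 44.6 ± 3.69 in the same order, and in sclera 39.9 ± 3.35, 37.3 ± 3.81 and 24.1 ± 2.98. Every iris array was thus above every RPE/choroid array, and every RPE/choroid array was above every sclera array. The mean was 306.8 ± 2.93 in iris, 43.2 ± 1.30 in RPE/choroid and 33.8 ± 8.49 in sclera (SD, n = 3 arrays each). The spread between the arrays was 0.953% of the mean in iris and 25.1% in sclera, where the −30 D array was the low one.

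**Figure D1:**
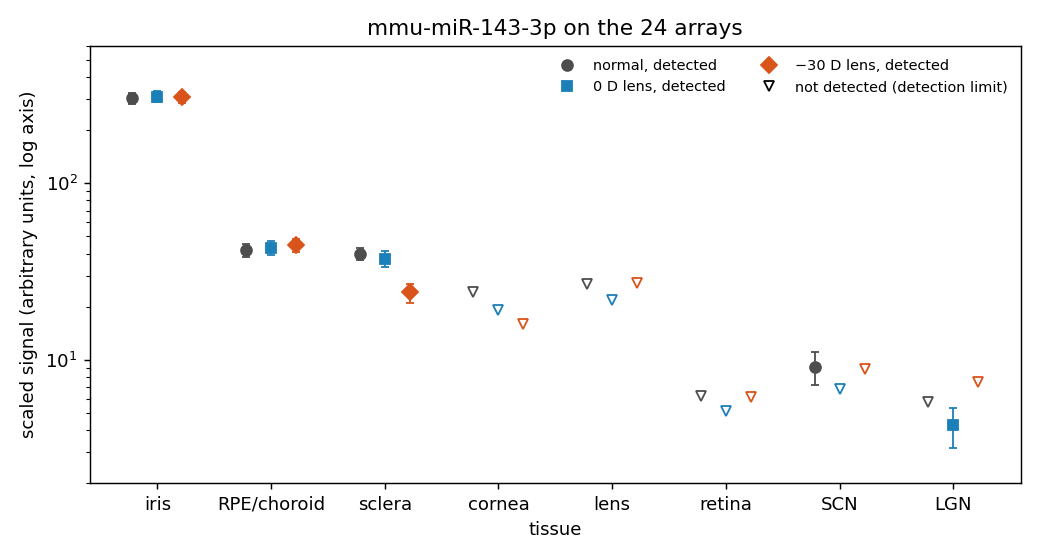
Scaled signal (arbitrary units, log axis) of mmu-miR-143-3p on each array, by tissue and lens group; filled symbols with bars are detected signals with the probe error, and open triangles mark the detection limit of arrays where it was not detected. The 3 iris arrays sit at 304 to 310, above the RPE/choroid arrays at 42.0 to 44.6 and the sclera arrays at 24.1 to 39.9.

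In the other tissues, mmu-miR-143-3p was mostly below detection. It was detected on 0 of 3 arrays each of cornea, lens and retina, where the detection limits, taken as the probes at 3 errors each, were 16.0 to 24.2, 21.9 to 27.4 and 5.11 to 6.24. In the SCN it was detected on the normal array alone, at 9.16 ± 1.91, and in the LGN on the 0 D array alone, at 4.27 ± 1.09. On both of these brain arrays, only 1 of the 2 probes was above 3 errors. The limits of cornea and lens, which add both probes, lie near the sclera signal, but detection needed only 1 probe. The brighter probe was at 15.5 to 24.8 in sclera. This was above 3 times its error in cornea (at most 4.04) and in lens (at most 4.57), by a small margin for the lowest sclera array. The same probe read −0.66 to 5.67 in cornea and −4.58 to −3.89 in lens.

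By these limits, the iris level of mmu-miR-143-3p was at least 15.7-fold higher than that of cornea, 12.2-fold than that of lens and 52.8-fold than that of retina. The RPE/choroid level was at least 2.21-fold, 1.71-fold and 7.44-fold higher than those of the same tissues. The sclera level was at least 1.69-fold higher than that of cornea, 1.31-fold than that of lens and 5.68-fold than that of retina. Against the brain regions, the iris was at least 35.3-fold above the SCN and 47.0-fold above the LGN. In these bulk RNA samples, fewer cells of a type and less RNA per cell cannot be told apart.

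The comparison of iris, RPE/choroid and sclera with the other 5 tissues was fitted with limma over the 24 arrays, with tissue and lens group as terms and the arrays of the 3 lens groups as the repeats of a tissue. The p-values of this fit thus measure the spread between single arrays of pooled RNA. mmu-miR-143-3p had a fitted log2 difference of 5.0 ± 0.21 (SE), given as a description without its p. It passed the filter of detection on all 3 arrays of a tissue only through the tissues where it was bright, and undetected arrays were set to a floor of 2.04, so that the difference was fixed in direction and depends on the floor in size. It ranged from 1.87 with normexp background correction and quantile normalization to 8.77 with undetected arrays at 0.1. In this fit, 308 of 337 miRNAs (91.4%) passed an adjusted p of 0.05, 139 of them (41.2%) as higher.

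The comparison within the 3 bright tissues rests on signals measured on both sides. The iris level of mmu-miR-143-3p was 7.10-fold that of RPE/choroid (log2 difference 2.83 ± 0.40, limma adjusted p = 7.7e-06 over 337 miRNAs and 28 tissue pairs). It was 9.30-fold that of sclera (3.22 ± 0.40, limma adjusted p = 1.7e-06). As background, 129 of 337 miRNAs (38.3%) passed between iris and RPE/choroid, 59 of them (17.5%) as higher in iris, and 174 (51.6%) passed between iris and sclera, 84 of them (24.9%) as higher in iris. The SE of 0.40 is shared by all 8 tissues, the brain regions with 1 detected array each included, and it was 0.17 in a fit of the 9 arrays of iris, RPE/choroid and sclera, which was added after seeing the data. With undetected arrays at 0.1, neither difference passed (limma adjusted p = 0.0998 for RPE/choroid and 0.0629 for sclera), with the same fold. Without scaling, the log2 difference of iris to sclera was 4.01.

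RPE/choroid and sclera, neighbors in the order of levels, differed 1.31-fold in mmu-miR-143-3p, and this did not pass the test (log2 difference 0.39 ± 0.40, limma adjusted p = 0.469), where 106 of 337 miRNAs (31.5%) did. Without scaling the difference was 0.95 and passed (limma adjusted p = 0.0282), and without the −30 D arrays it was 0.14. In the normal group RPE/choroid was 1.05-fold, in the 0 D group 1.15-fold and in the −30 D group 1.85-fold the sclera. RPE/choroid was thus above sclera in each group, and the size of the difference rests largely on the −30 D sclera array. The difference of SCN and LGN did not pass either (log2 difference 0.37, limma adjusted p = 0.504, where 48.7% of the 337 miRNAs passed), with the floor on 2 of 3 arrays in each. Of the 28 tissue pairs, 17 passed for mmu-miR-143-3p, with a background of 5846 of 9436 miRNA and pair combinations (62.0%).

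The iris excess over RPE/choroid was much the same in each lens group and on each probe, whereas that over sclera varied. The iris level of mmu-miR-143-3p was 7.23-fold that of RPE/choroid in normal, 7.20-fold in 0 D and 6.88-fold in −30 D eyes, and the single probes gave 6.79-fold to 7.36-fold. Without scaling, the ratios were 7.27, 11.3 and 7.03, and the 0 D iris array was the one scaled down the most of the 24 (log2 factor −1.01). Against sclera, the iris ratio was 7.61-fold, 8.30-fold and 12.7-fold in the same order of groups, and 11.2, 19.5 and 19.2 without scaling. The 15 spots of each probe varied by 2.45% to 3.52% (CV) within an iris array, and no spot was saturated.

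Few other miRNAs had an iris excess as large. Among the 181 miRNAs detected on all 6 arrays of iris and RPE/choroid, mmu-miR-143-3p had the second highest ratio, after mmu-miR-211-5p (8.20-fold), which is made from the melanocyte gene Trpm1, and before mmu-miR-34a-5p (5.49-fold), a target of p53. The median log2 ratio of the 181 was −0.15. Between iris and sclera it was again the second of 165, after mmu-miR-211-5p (14.3-fold). Between RPE/choroid and sclera, mmu-miR-143-3p was only the 45th of 191, and the highest there was mmu-miR-126a-3p (3.43-fold), an endothelial miRNA. Being detected on all arrays of iris, RPE/choroid and sclera and on at most 1 array of any other tissue was common to 9 miRNAs, among which mmu-miR-143-3p alone was not brightest in RPE/choroid or sclera.

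mmu-miR-145a-5p, the guide strand of the second hairpin, was detected in the iris only. Its iris level was 15.2 ± 1.78 without a lens, 14.8 ± 1.52 under the 0 D lens and 24.1 ± 2.33 under the −30 D lens, with a mean of 18 ± 5.27 (SD, n = 3 arrays). The −30 D array was the high one, and the other two did not differ beyond their probe errors. Both of its probes were above 3 errors on each iris array, at 4.34 to 6.17 and 7.39 to 8.28 errors. It was 1 of 3 miRNAs detected on all 3 iris arrays and on no other array, with mmu-miR-224-5p and mmu-miR-28c.

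On the other 21 arrays mmu-miR-145a-5p was below detection, with limits of 7.79 to 9.41 in RPE/choroid, 7.08 to 11.2 in sclera and 5.08 to 6.21 in retina. The iris level was therefore at least 2.11-fold higher than that of RPE/choroid, 1.89-fold than that of sclera and 3.04-fold than that of retina. It was at least 2.10-fold above the SCN and 2.79-fold above the LGN. No bound can be given for cornea and lens, whose limits of 15.8 to 24.2 and 21.9 to 27.4 reach the iris signal. As the miRNA passed the filter through the iris alone, the fitted differences are not given as a result.

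RPE/choroid came close to detection for mmu-miR-145a-5p. Its brighter probe was at 2.80, 2.83 and just under 3 errors on the 3 RPE/choroid arrays, below the threshold each time, and its dimmer probe at 0.838 to 0.951 errors. In sclera, the brighter probe was at −0.27 to 1.38 errors, and in cornea, lens, retina and both brain regions it was below 0 on all arrays. RPE/choroid thus held the next highest probe signals of mmu-miR-145a-5p after the iris, without passing the threshold.

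**Figure D2:**
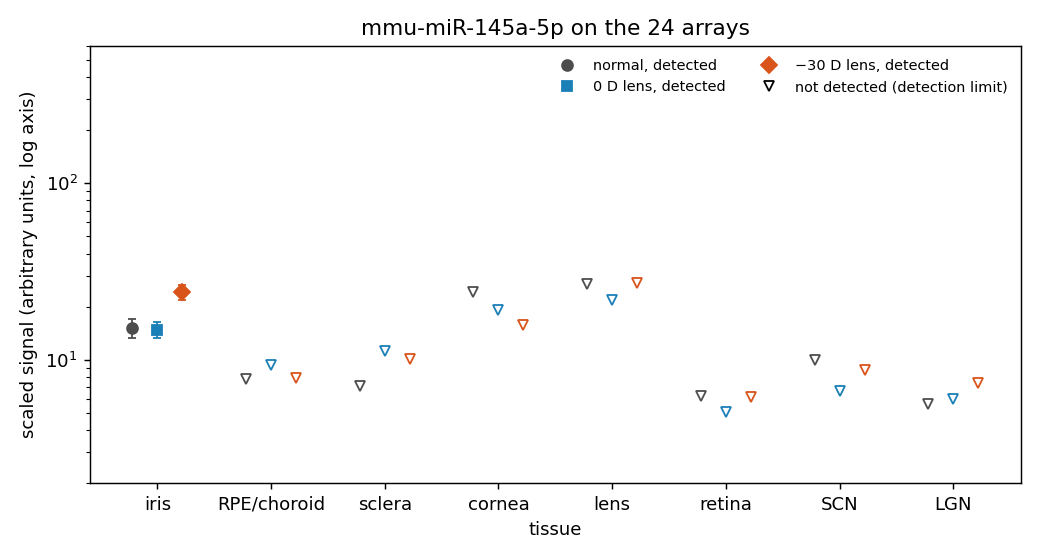
Scaled signal (arbitrary units, log axis) of mmu-miR-145a-5p on each array, by tissue and lens group; filled symbols with bars are detected signals with the probe error, and open triangles mark the detection limit where it was not detected. Only the 3 iris arrays have detected signals, from 14.8 to 24.1, and the limits of cornea and lens lie at the same height.

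mmu-miR-145a-3p, the passenger strand, was not detected in any tissue. Its 4 probes had signals of at most 1.30 before scaling, and of at most 1.5 errors on any array. Of the related products, mmu-miR-143-5p, the passenger strand of the first hairpin, reached at most 0.778 errors, and mmu-miR-145b, from a separate gene, at most 0.129 errors. Each hairpin was thus detected by a single strand on these arrays.

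**Figure D3:**
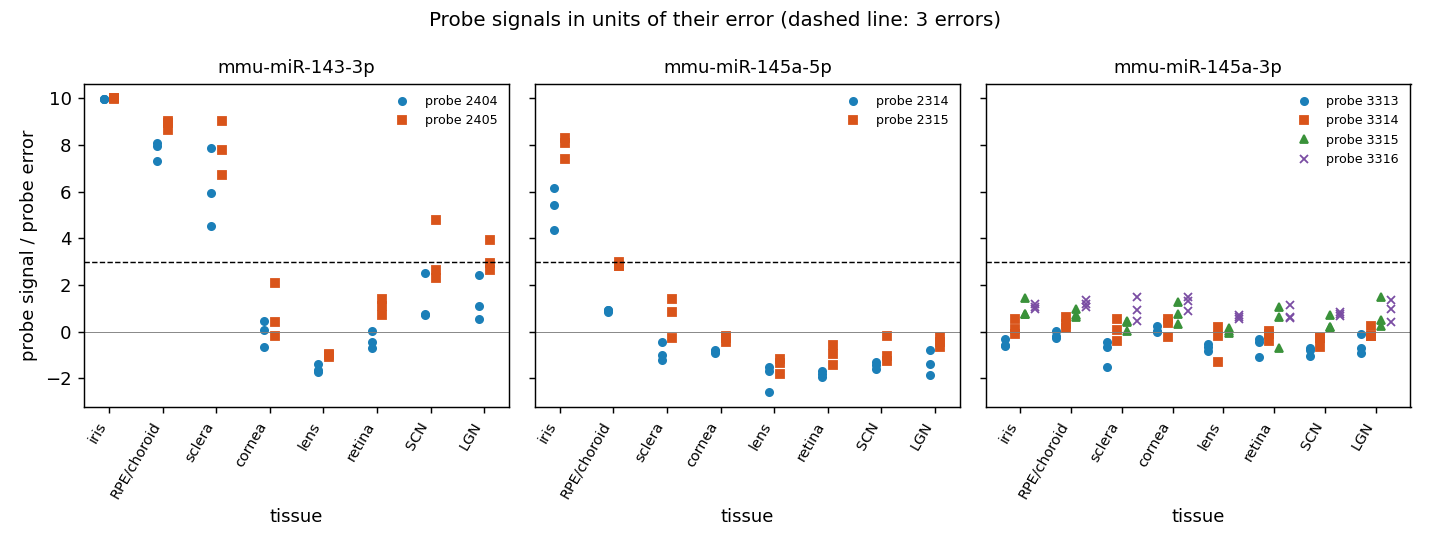
Signal divided by its error for each probe of the 3 cluster products on the 24 arrays, by tissue; each point is 1 probe on 1 array, colors and shapes mark the probes by the last digits of their names, and the dashed line is the detection threshold of 3 errors. Both probes of mmu-miR-143-3p are above the line in iris, RPE/choroid and sclera, both of mmu-miR-145a-5p in iris only, and none of mmu-miR-145a-3p in any tissue.

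Lens groups were compared within a tissue without a test, since there was 1 array each. A change was counted as a ratio above 2 or below 0.5 where both arrays detected the miRNA, and above 5 or below 0.2 where 1 of them did. For mmu-miR-143-3p, −30 D over normal gave a log2 ratio of 0.01 ± 0.15 in iris and 0.09 ± 0.17 in RPE/choroid (errors from the probes), and 0 D over normal gave 0.03 ± 0.15 and 0.03 ± 0.18. Iris and RPE/choroid thus had ratios within the probe error of 0. None of these met the criteria. Between −30 D and normal, 42 of 234 miRNAs in iris (17.9%) and 35 of 243 in RPE/choroid (14.4%) met them, and between 0 D and normal 41 of 241 (17.0%) and 30 of 233 (12.9%). In the brain regions, mmu-miR-143-3p met the criteria through detection on a single array, since an undetected array counts as 0.1. In the SCN it was called lower on both lens arrays than on the normal one, where 32 of 259 miRNAs (12.4%) changed for −30 D and 39 of 262 (14.9%) for 0 D. In the LGN it was called higher on the 0 D array than on the normal and the −30 D one, where 29 of 250 (11.6%) and 31 of 244 (12.7%) changed in either direction. The signals of 9.16 on the normal SCN array and 4.27 on the 0 D LGN array each came from 1 probe. Both lay below the limits of their own arrays, 10.9 and 6.37, which add both probes, since 1 probe sufficed for detection. That probe was at 4.79 errors on the normal SCN array, against 2.66 on the 0 D and 2.32 on the −30 D one. In the LGN it was at 3.92 errors on the 0 D array, against 2.93 on the normal and 2.66 on the −30 D one.

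In sclera, mmu-miR-143-3p was 0.603-fold on the −30 D array against the normal one (log2 ratio −0.73 ± 0.22), and it was lower than on the 0 D array by a similar step (log2 ratio −0.63 ± 0.23). The 0 D and normal arrays differed by less than the probe error (log2 ratio −0.10 ± 0.19). On the scaled signals, neither ratio to normal met the criteria. In sclera, 71 of 247 miRNAs (28.7%) met them for −30 D and 56 of 245 (22.9%) for 0 D. For −30 D, a ratio at least as far from 1 was seen for 49 of the 208 miRNAs detected on both arrays. The log2 ratio of mmu-miR-143-3p was −0.87 without scaling, −1.01 with quantile normalization and −0.49 with every miRNA, and so the scaling too, taken from its brightest probe. With quantile normalization the ratio was thus just below 0.5 and met the criteria. The median log2 ratio of the 208 was itself −0.18. Markers of other cells moved on the same array. The endothelial mmu-miR-126a-3p was at 392.9, 387.1 and 242.5 on the normal, 0 D and −30 D sclera arrays (log2 ratio −0.70 for −30 D over normal), and the summed level of the retinal miRNAs was at 1094, 441.2 and 523.8. Against normal, the striated muscle list went the other way, at 152.5, 330.3 and 254.2, as did the epithelial list, at 123.0, 111.4 and 275.1. Against 0 D, the retinal list was higher on the −30 D array and the striated muscle list lower. The blood cell list was at 89.6, 83.8 and 67.3 in the same order of groups, and the mesenchymal list at 1607, 1637 and 1406. Their part in the lower mmu-miR-143-3p signal was not tested.

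In iris, the log2 ratios of mmu-miR-145a-5p to the normal array were 0.67 ± 0.22 for the −30 D and −0.03 ± 0.22 for the 0 D lens. On the same arrays mmu-miR-143-3p stayed near 0, and the difference between the cluster products, which does not depend on the scaling, was 0.65 ± 0.26 for −30 D against normal and 0.72 ± 0.25 for −30 D against 0 D. The change of mmu-miR-145a-5p did not meet the criteria either, and 31 of the 203 miRNAs detected on both arrays had a ratio at least as far from 1. Without scaling, the 0 D array was at a log2 ratio of 0.44, near the 0.56 of the −30 D array, so that which iris array stood out depended on the scaling.

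**Figure D4:**
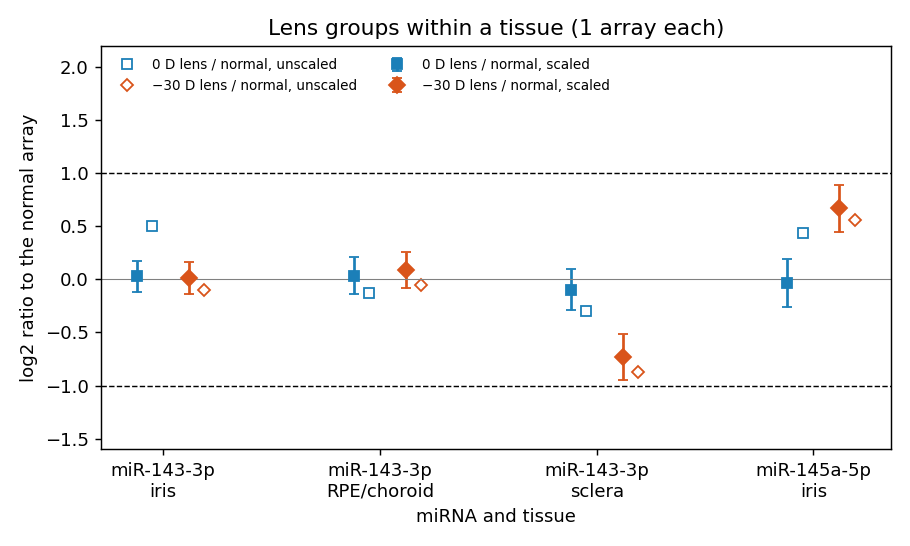
Log2 ratio of each lens group to the normal array of the same tissue, for mmu-miR-143-3p in 3 tissues and mmu-miR-145a-5p in iris; filled symbols are scaled ratios with the probe error, open symbols the unscaled ratios, and dashed lines mark ratios of 2 and 0.5. All scaled and unscaled ratios lie between the dashed lines, and the −30 D sclera (−0.73) and the −30 D iris (0.67) lie farthest from 0.

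A change common to the 6 ocular tissues was tested with limma on their 18 arrays, with the tissue as a block. mmu-miR-143-3p differed by −0.10 ± 0.10 between −30 D and normal (limma adjusted p = 0.647), and mmu-miR-145a-5p by 0.11 ± 0.09 (limma adjusted p = 0.615). Between 0 D and normal, both had log2 differences of −0.01 (limma adjusted p = 1). In these comparisons, limma called 0 of 337 miRNAs (0.0%), with 28 and 35 at an unadjusted p under 0.05. With tissues at the floor in this fit, it says little on miRNAs that were detected in a few tissues only.

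The other miRNAs known for acting on smooth muscle cells did not move together between iris and RPE/choroid. The list held 13 miRNAs, such as mmu-miR-1a-3p and mmu-miR-133a-3p of muscle differentiation and mmu-miR-221-3p and mmu-miR-24-3p, which are induced by growth factors and lower contractile genes, of which 12 were tested. Between iris and RPE/choroid, 2 were higher in iris and 2 lower (median log2 difference −0.03, against 0.00 for all miRNAs tested), near the share of 38.3% called among all. Higher were mmu-miR-221-3p by 1.64 ± 0.20 (limma adjusted p = 9.1e-07), and mmu-miR-490-3p, which was detected in iris at 4.51 to 8.39 and on 0 of 3 RPE/choroid arrays, so that its call was set by the filter and the floor. Lower were mmu-miR-204-5p of pigment epithelium (log2 difference −1.44 ± 0.19) and mmu-miR-146a-5p (−1.14 ± 0.31). Against the 5 other tissues, 9 of the 12 were higher and 3 lower in the 3 tissues (median 0.40, against −0.13 for all), where 91.4% of all miRNAs tested were called and 41.2% were higher. The filter and the floor set part of these calls, which are given as a description only. In the 5 other tissues, mmu-miR-146a-5p was detected on no array and mmu-miR-490-3p on a single SCN array.

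Among the marker miRNAs of other cells, the summed pigment and epithelial lists were higher in iris than in RPE/choroid and sclera, as mmu-miR-143-3p was. The endothelial, mesenchymal and striated muscle lists were not. The pigment list, mmu-miR-204-5p and mmu-miR-211-5p, summed to 1067 to 1211 in iris, 829.8 to 1009 in RPE/choroid and 570.8 to 744.9 in sclera. This was the order of mmu-miR-143-3p, with lens at 1227 to 1377 above them. The members of this list went opposite ways. Its sum was highest in iris through mmu-miR-211-5p, with medians of 782.1 in iris, 108.3 in RPE/choroid and 51.3 in sclera. Among the 3 tissues, mmu-miR-204-5p was lowest in iris, at 288.2 to 304.4, against 757.9 to 881.1 in RPE/choroid and 519.5 to 669.9 in sclera. The endothelial list was carried by mmu-miR-126a-3p, at 328.7 to 349.9 in iris, 1030 to 1203 in RPE/choroid and 242.5 to 392.9 in sclera. It was brightest in RPE/choroid, where mmu-miR-143-3p was 7.10-fold below its iris level, though the difference of mmu-miR-126a-3p between iris and RPE/choroid did not pass (−1.76 ± 0.88, limma adjusted p = 0.095). The others of this list, mmu-miR-126a-5p and mmu-miR-126b-5p, were at 0 in iris and sclera. The 5 miRNAs of mesenchyme and fibroblasts, among them mmu-miR-199a-3p and mmu-miR-214-3p, were lowest in iris among the 3 tissues, with summed levels of 162.6 to 184.3 in iris, 672.6 to 708.9 in RPE/choroid and 1406 to 1637 in sclera. All 5 were lower in iris than in RPE/choroid (median log2 difference −2.18) and than in sclera (median −3.27), with limma adjusted p under 0.05 for each, against 38.3% and 51.6% called among all miRNAs.

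Striated muscle was read by a list of 6 miRNAs. Their summed level was 84.5 to 96.4 in iris, 83.9 to 132.4 in RPE/choroid and 152.5 to 330.3 in sclera, and 686.4 to 757.4 in lens, where mmu-miR-143-3p was not detected. Of the 4 tested, 0 differed between iris and RPE/choroid, where 129 of 337 miRNAs (38.3%) did. Among the 4 was mmu-miR-206-3p, which was at the floor in both tissues and could not differ. Between iris and sclera, 2 of the 4 were lower in iris, where 174 of 337 miRNAs (51.6%) were called. mmu-miR-206-3p, mmu-miR-133a-5p and mmu-miR-499-5p were at 0 in iris. The epithelial list summed to 523.5 to 573.8 in iris, 99.7 to 147.3 in RPE/choroid and 111.4 to 275.1 in sclera. Most of it was mmu-miR-184-3p, at 505.3 to 549.6 in iris and 29710 to 36854 in cornea, where mmu-miR-143-3p was not detected. The iris also held the epithelial mmu-miR-205-5p, mmu-miR-200c-3p and mmu-miR-141-3p, which were at 0 in RPE/choroid and sclera. mmu-miR-205-5p was at 4.53 to 8.06 in iris and at 895.3 to 1108 in cornea. The remaining member of the list, mmu-miR-203-3p, was at 0 in iris, RPE/choroid and sclera and at 62.1 to 71.1 in cornea. Retinal miRNAs were found outside the retina, with mmu-miR-183-5p at 520.0 to 900.0 in RPE/choroid and 252.7 to 658.1 in sclera, against 10.6 to 19.3 in iris and 8510 to 9710 in retina. The part of these cells in the iris level of mmu-miR-143-3p was not tested.

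**Figure D5:**
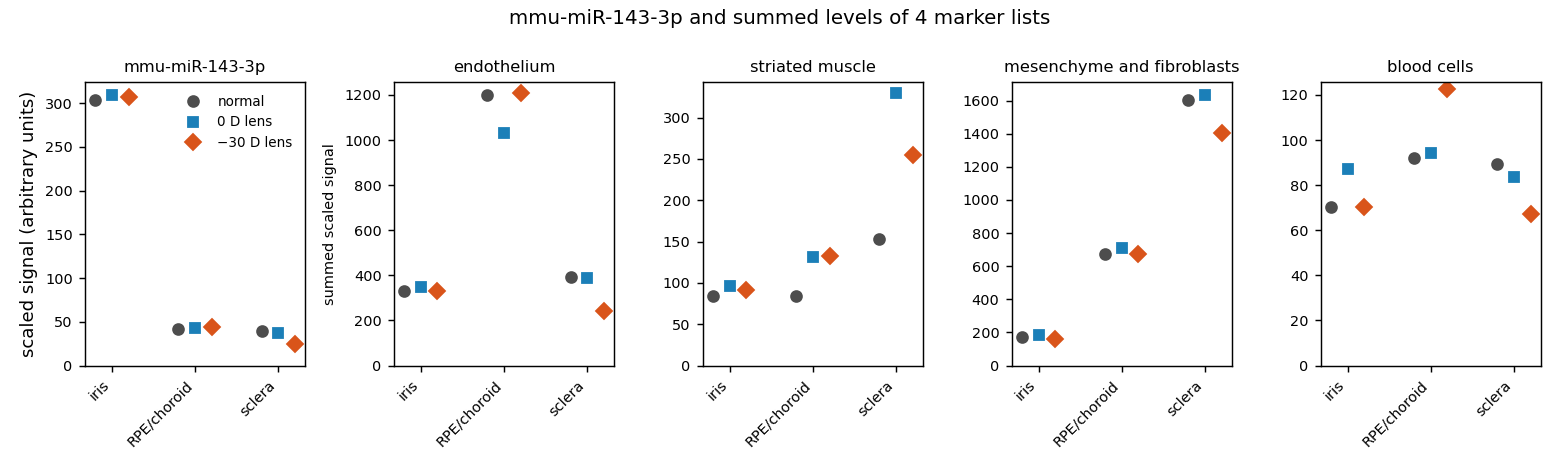
Scaled signal of mmu-miR-143-3p and summed scaled signals of 4 marker lists (linear axes from 0, arbitrary units, each panel with its own range) in iris, RPE/choroid and sclera; each point is 1 array, colored by lens group. mmu-miR-143-3p is highest in iris at 304 to 310, the endothelial list in RPE/choroid, and the mesenchymal list in sclera at 1406 to 1637.

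The pattern most like that of mmu-miR-143-3p was sought over the 24 arrays among the 121 miRNAs detected on at least 20 arrays, by Pearson's r of log2 levels, as a description of arrays that share slides and scaling. The 5 highest were mmu-miR-24-3p, mmu-miR-22-3p and mmu-let-7i-5p (each r = 0.77), mmu-miR-23a-3p (0.73) and mmu-miR-211-5p (0.65). The steepest iris peak of these was that of mmu-miR-211-5p, with geometric means of 818 in iris, 99.8 in RPE/choroid and 57.1 in sclera, though it was also at 164.4 in retina, where mmu-miR-143-3p was not detected. mmu-let-7i-5p was also highest in iris, at 1051 to 1122, above sclera at 813.5 to 937.8. mmu-miR-23a-3p had its highest geometric mean there too (529, against 474.4 in RPE/choroid and 472.6 in sclera), with arrays that overlapped. mmu-miR-24-3p was level over the bright tissues (709, 741.7 and 767.3). For mmu-miR-145a-5p, the 5 highest were mmu-miR-211-5p (r = 0.62), mmu-let-7i-5p (0.56), mmu-miR-99b-5p (0.47), mmu-let-7a-5p (0.43) and mmu-let-7e-5p (0.42). mmu-miR-211-5p and mmu-let-7i-5p were thus among the 5 of both products. As mmu-miR-145a-5p was at the floor on every array outside iris, its r mainly sets iris against all other tissues. Not all of its 5 were highest in iris. The geometric mean of mmu-let-7e-5p was 1091 in SCN and 878.3 in iris, and that of mmu-let-7a-5p 1101 in retina and 1091 in iris.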

How the data were processed

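Total RNA was labeled with Cy3 and hybridized to Agilent mouse miRNA arrays (8 × 60K, miRBase 21.0). The authors made the deposited intensity values with Feature Extraction 10.7.1.1, which subtracts background and gives each probe a total signal with its error. Its printed total per miRNA was not used, as for mmu-miR-143-3p on the normal SCN and 0 D LGN arrays it was 47.4 and 72.0 where the probes summed to 7.15 and 7.07. The series-wide table was not used, since the group letters of its columns have more than 1 reading. The sample labeled choroid was taken as RPE/choroid.

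The probes above 3 errors were summed and scaled (log2 factors −1.01 to 1.65), then set to at least 2.04, the median over arrays of the lowest detected signal. Differences were tested with limma 3.58.1 (lmFit, eBayes with trend, R 4.3.3) and Benjamini-Hochberg adjustment over the 337 miRNAs that all 3 arrays of some tissue detected. In data simulated for the tissue comparison, 99 of 100 miRNAs changed by 2 (log2) were recovered, with 3 unchanged ones called. The simulated noise was normal, with the same spread in all tissues and no floor. It therefore does not show how the fit treats miRNAs that are undetected in some tissues. A bound sets the bright geometric mean against the detection limits. The number of arrays limits the precision.

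The miRNAs named were the 3 products, their 5 most alike each, fixed lists of smooth muscle and cell type miRNAs, and those ranked beside them. The members and lists were chosen with earlier results of these data known. miRNAs ranked beside the products or sharing their detection pattern were named after their values were seen. Scaling, background correction, floor, filter, probe choice and left-out arrays were varied.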

Additional observations from a re-analysis of the deposited data

How the results depend on the processing

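The excess of mmu-miR-143-3p in iris over RPE/choroid and over sclera kept its direction under every alternative run, and passed under all but 1. With undetected arrays at 0.1, the differences of iris to RPE/choroid (2.83) and to sclera (3.22) no longer passed. The difference of RPE/choroid to sclera passed without scaling (0.95), with normexp (0.38) and with a floor at the highest of the lowest detected signals (0.39), and over left-out arrays it ranged from 0.14 (without the −30 D arrays) to 0.55. For mmu-miR-145a-5p the tissue contrast was 0.00 without the iris arrays, its only detected tissue. The contrast called 308 miRNAs and 170 with a filter of at least 12 arrays, which tests fewer. Of the called, 139 were higher and 169 lower, against 162 and 139 without scaling, which moved the median of all miRNAs from −0.13 to 0.15.

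Over the ocular tissues, the −30 D to 0 D comparison called 0 miRNAs (41 at an unadjusted p under 0.05). It called 2 without scaling, 3 with normexp, 7 with the brightest probe, 1 with at least 12 arrays, 1 over all 8 tissues and 0 to 3 with a tissue left out (3 without RPE/choroid, 1 without lens). The 0 D to normal comparison called 4 with the brightest probe. The difference of mmu-miR-143-3p changed sign to 0.0201 for −30 D to normal without sclera, and was as low as −0.143 with another tissue left out. For 0 D to normal it changed to 0.0124 without scaling, 0.0036 with the printed totals, 0.0056 with the brightest probe and 0.0124 without sclera, with −0.0138 as the lowest with another tissue left out. That of mmu-miR-145a-5p for 0 D to normal changed to 0.0733 without scaling, 0.0599 with quantile normalization and 0.0195 with normexp. Ratios within a tissue called 233 (−30 D) and 211 (0 D) over the ocular tissues, and 12 and 6 with normexp. The cause was not tested.

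The 75th percentile over all miRNAs was 0 on all 24 arrays and could not be used. Without a filter, the fit held the miRNAs detected on at least 1 array. Normexp used median spot signals.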

Other observations

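The rule for likeness, detection on at least 20 arrays, leaves out miRNAs that are dark in most tissues, as mmu-miR-143-3p is. With all 336 other tested miRNAs as candidates, a choice made after seeing the data, the 5 most like mmu-miR-143-3p over the 24 arrays were mmu-miR-5119 (r = 0.85), mmu-miR-223-3p (0.83), mmu-miR-155-5p (0.82), mmu-miR-146a-5p (0.80) and mmu-miR-152-3p (0.79), none of which was among the 5 named above. mmu-miR-223-3p of myeloid cells and mmu-miR-146a-5p and mmu-miR-155-5p of immune activation were among them. mmu-miR-223-3p was at 37.0 to 46.6 in iris, 52.6 to 58.2 in RPE/choroid and 42.0 to 56.8 in sclera, so that it had no iris peak. Arrays where a miRNA was not detected share the floor in this measure.

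For mmu-miR-145a-5p, the most alike of all were mmu-miR-28c (r = 0.997), mmu-miR-378a-5p (0.88), mmu-miR-143-3p (0.74), mmu-miR-490-3p (0.74) and mmu-miR-224-5p (0.73). mmu-miR-28c and mmu-miR-224-5p were detected on the 3 iris arrays only, at geometric means of 4.84 and 3.09. mmu-miR-378a-5p was detected in iris (13.8) and retina (5.12).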
